A study of Mus musculus with 8 samples.

Results

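The hydrolases of the intestinal brush border were followed in the small intestine of mouse embryos with and without Rfx6, a transcription factor known for its part in forming the hormone-producing cells of gut and pancreas. Members are the genes Lct, Sis, Mgam, Treh, Alpi, Anpep, Enpep, Dpp4, Mep1a and Mep1b, found on the arrays as the probes whose gene name is one of these symbols. That gave 11 probes of the 55681 on the array: 1 for each gene and 2 for Mgam. All 10 genes were among the 23282 genes tested.

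Whole small intestine was taken at embryonic stage E18.5. The control group held 4 Rfx6+/+ samples and the knockout group, labelled Rfx6 KO, held 4 Rfx6-/- samples. The Rfx6 allele came from Rfx6f/+ mice bred to CMV-Cre mice, whose Cre is active throughout the body, so the deletion was not limited to the gut epithelium. Heterozygous offspring were then intercrossed. Every title carries its own number, but litter and sex are not given. The p-values set a group difference against the spread between these samples, and any part of litter or sex in it is not known. Total RNA, 100 ng per sample, was labelled with 1 dye and hybridised to 8 Agilent arrays on 1 slide.

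The brush border is the carpet of microvilli on the lumen side of absorptive enterocytes. Its hydrolases are anchored in the microvillus membrane and complete digestion: disaccharidases split sugars, peptidases split short peptides, and alkaline phosphatase removes phosphate groups. In rodents lactase dominates before weaning and sucrase-isomaltase comes up around weaning. Cdx, GATA and HNF4 factors are among the classical regulators of these genes in enterocytes.

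Levels are given on the log2 scale after each array was scaled to its 75th percentile of processed signal, so that 0 is the signal at that percentile and 1 unit is a factor of 2. Differences are knockout minus control on the same log2 scale. They were tested with limma over all genes, and a gene was called when its Benjamini-Hochberg adjusted p was under 0.05. A level cannot be compared between probes, because each probe binds with its own strength.

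Of the 10 hydrolases, 2 fell in the knockout, Lct and Treh, and 0 rose. Both are disaccharidases. Lct fell 1.68-fold. Treh fell 2.88-fold, but its probe is near background, and the fold was 1.68 with normexp background correction and 1.71 in the authors' series matrix values. Treh was not well above background on 1 knockout array, so it passed the filter through the controls only, where it is high. When probes had to be so on all 8 arrays, Treh was not tested and 1 of 9 members, Lct, was called lower. Neither Lct nor Treh was called with quantile normalization (limma adjusted p = 0.187 and 0.0573) or with the slide row as a block (0.0781 and 0.0684). Over all genes tested 1145 of 23282 were called, which is 4.92%, with 2.59% called lower and 2.33% called higher. In numbers that is 602 lower and 543 higher, a split that became 253 and 545 when arrays were centred on their medians. At an unadjusted p under 0.05 stood 5 members, with Lct, Treh and Mep1b lower and Sis and Mep1a higher, against 20.5% of all genes. The 10 differences ran from -1.53 to 0.42 with a median of -0.01, and 5 were negative. All genes tested had a median difference of -0.05, with 60.5% negative.

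**Figure D1:**
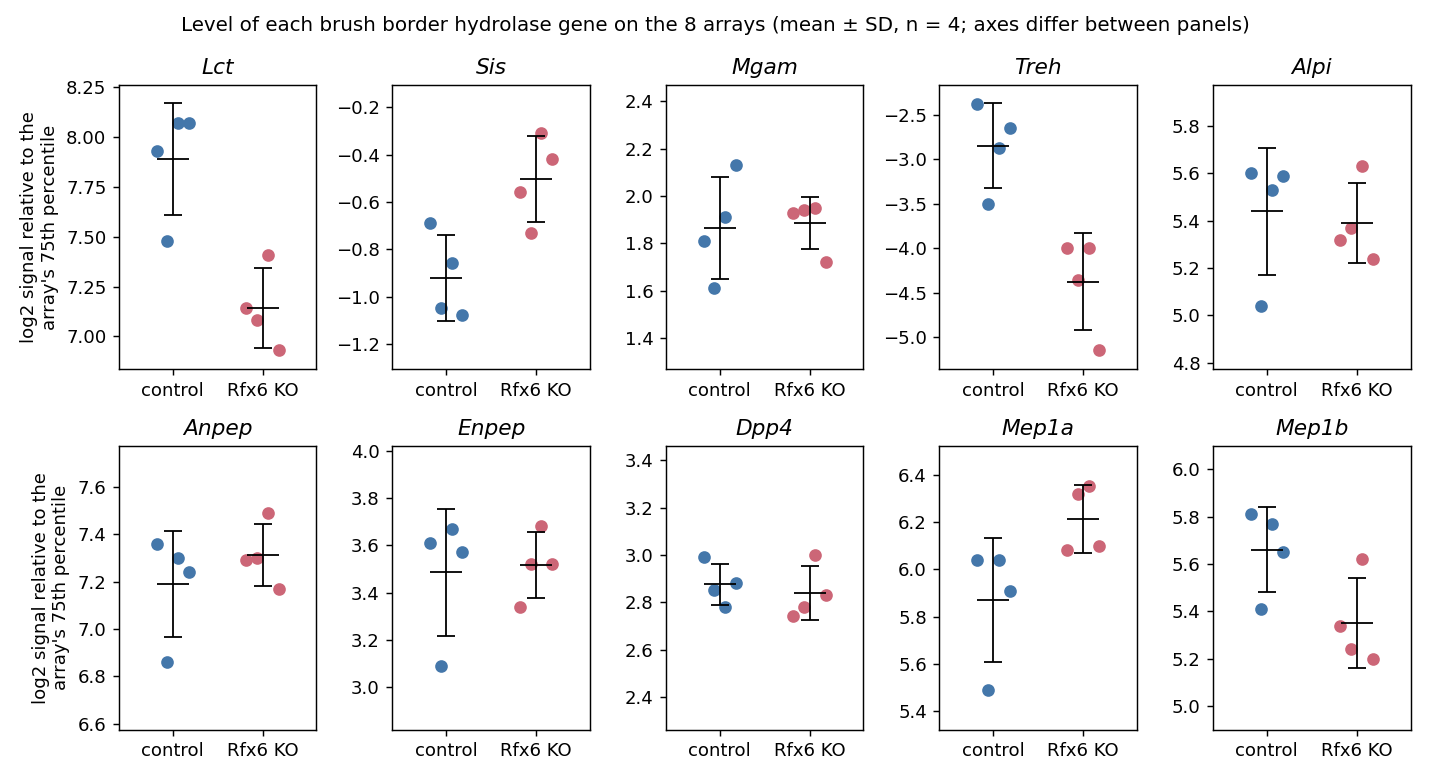
Level of each hydrolase on the 8 arrays, as log2 signal relative to the 75th percentile of the array, with control in blue and Rfx6 KO in red; points are single arrays in replicate order, and bars are mean ± SD (n = 4). The groups are apart for Lct and Treh, with the knockout lower, and for Mep1a, with the knockout higher; the other 7 genes overlap, and the axes differ between panels.

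Lct encodes lactase-phlorizin hydrolase, which splits milk sugar into glucose and galactose. Its probe lies on chromosome 1 at 130181389 to 130181448 (mm9). On control arrays 1 to 4 its level was 7.93, 7.48, 8.07 and 8.07. On knockout arrays 1 to 4 it was 7.14, 7.08, 7.41 and 6.93. The highest knockout array lay just under the lowest control array, so the groups did not overlap. The means were 7.89 ± 0.28 and 7.14 ± 0.20 (SD, n = 4), and the difference was -0.75 (SE 0.16), with a 95% interval from -1.10 to -0.39. The limma adjusted p was 0.0296, and permuting the group labels in all 70 ways (exact, two-sided) gave 0.0286, the smallest p that 4 against 4 allows. In whole intestine, fewer enterocytes and less Lct RNA per enterocyte cannot be told apart. The call was lost without any 1 of control arrays 1, 3 and 4 or knockout arrays 1, 2 and 4, with adjusted p between 0.0657 and 0.0981 and the difference between -0.75 and -0.68.

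Treh encodes trehalase, which splits trehalose, a sugar of fungi and insects, into glucose. Its probe lies on chromosome 9 at 44494328 to 44494387 (mm9). Control levels were -2.38, -3.50, -2.87 and -2.65. Knockout levels were -4.00, -4.36, -4.00 and -5.15. Every knockout array lay below every control array, with control 2 the lowest of the controls and knockout 4 the lowest of all. The means were -2.85 ± 0.48 and -4.38 ± 0.54 (SD, n = 4), a difference of -1.53 (SE 0.30) with a 95% interval from -2.21 to -0.84. The limma adjusted p was 0.0243 and the exact permutation p was 0.0286. Treh passed the filter through the controls only, where it is high, so these p-values are no independent support for a fall.

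Treh is a dim probe. Its processed signal was 127, 61.8, 88.1 and 111 scanner units on the controls and 46.3, 33.6, 44.5 and 17.9 on the knockouts. The software marked it as well above background on every control array and on knockout arrays 1, 2 and 3, but not on knockout array 4. The size of its difference depended on how background was handled: it was -0.75 with normexp background correction (limma adjusted p = 0.0132) and -0.78 in the authors' series matrix values (0.0328). The call was also lost without control array 1, 3 or 4 or knockout array 2, with limma adjusted p between 0.0596 and 0.0784.

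Sis encodes sucrase-isomaltase, which splits sucrose and the branch points of starch fragments. Its probe lies on chromosome 3 at 72692810 to 72692869 (mm9). Control levels were -0.69, -1.05, -0.86 and -1.08, and knockout levels were -0.56, -0.73, -0.31 and -0.42. The knockout arrays were higher except that control 1 lay above knockout 2. The means were -0.92 ± 0.18 and -0.50 ± 0.18 (SD, n = 4), a difference of 0.42 (SE 0.12) with a 95% interval from 0.14 to 0.70. This did not pass the threshold (limma adjusted p = 0.0946, exact permutation p = 0.0571), nor did it in any of 20 alternative analyses, where the difference was between 0.32 and 0.49.

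Promoter sequence of the disaccharidases that differed most is shown because Cdx, GATA and HNF4 are known regulators and because Lct and Sis, set side by side in the same samples, had opposite signs. The windows are the 180 bases before the RefSeq start in GRCm38.p6, 5′ to 3′ on the coding strand, with capitals for matches to any of the 4 motifs spelled out after them. They lie at chr1:128328319-128328498 (minus strand) for Lct, chr9:44673053-44673232 (plus strand) for Treh and chr3:72967864-72968043 (minus strand) for Sis.
Lct: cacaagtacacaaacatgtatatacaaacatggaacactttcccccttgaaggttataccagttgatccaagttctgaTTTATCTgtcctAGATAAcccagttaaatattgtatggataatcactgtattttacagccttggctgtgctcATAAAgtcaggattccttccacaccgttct
Treh: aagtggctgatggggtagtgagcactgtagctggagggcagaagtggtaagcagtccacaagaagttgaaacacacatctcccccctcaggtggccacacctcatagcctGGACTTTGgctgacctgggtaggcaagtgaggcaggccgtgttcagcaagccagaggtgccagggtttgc
Sis: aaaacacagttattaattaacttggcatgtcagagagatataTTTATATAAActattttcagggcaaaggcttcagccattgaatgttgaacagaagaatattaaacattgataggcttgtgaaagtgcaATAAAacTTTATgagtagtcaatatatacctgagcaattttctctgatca

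Motifs were searched on both strands of the RefSeq windows from 250 bases before to 50 after the start, which were found for 9 of the 10 members. The Cdx core TTTAT was in 7 of the 9 (all but Treh and Anpep), and in 40.0% of all 32851 windows. The GATA core AGATAA was in 3, Lct, Mgam and Dpp4, against 11.2% of windows. In the Lct window one of the 2 AGATAA matches shares bases with a TTTAT match, and ATAAA, the reverse complement of TTTAT, can be part of a TATA box. The HNF4 core CAAAGTCC was in Treh, with 2 matches of which 1 lies upstream of the bases printed, and in Alpi, against 1.42% of windows. The RFX motif GTTGCC was in Enpep alone, against 12.5%. These are matches of letters and do not show that a factor binds.

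Mgam encodes maltase-glucoamylase, which releases glucose from the ends of starch fragments. It is the only member with 2 probes, which are shown because they read the transcript far apart. The array's annotation places the first at transcript base 5534, with its genome span of 40716016 to 40718228 on chromosome 6 (mm9) crossing a splice junction, and the second at transcript base 1695 and 40613529 to 40613588.
Mgam base 5534: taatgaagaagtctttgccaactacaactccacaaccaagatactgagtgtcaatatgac
Mgam base 1695: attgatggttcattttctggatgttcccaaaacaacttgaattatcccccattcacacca

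On the brighter Mgam probe, at base 5534, control levels were 1.81, 1.61, 1.91 and 2.13 and knockout levels 1.93, 1.94, 1.95 and 1.72. The groups overlapped, with the knockouts inside the range of the controls. The difference was 0.02 (SE 0.12, limma adjusted p = 0.949), with a 95% interval from -0.25 to 0.29. On the dimmer probe the controls were -0.06, -0.53, -0.02 and 0.21 and the knockouts -0.18, -0.23, -0.15 and -0.17. That probe gave -0.08 (SE 0.14, limma adjusted p over probes = 0.795), also with overlapping groups. On neither Mgam probe was the difference larger than the spread between arrays.

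Alpi encodes an intestinal alkaline phosphatase, an enzyme known for taking phosphate from lipids and bacterial endotoxin. Its probe lies on chromosome 1 at 88994890 to 88994949 (mm9). Control levels were 5.60, 5.04, 5.53 and 5.59, and knockout levels were 5.32, 5.37, 5.63 and 5.24. Control 2 was the lowest of all 8 arrays and knockout 3 the highest, so the groups overlapped. The difference was -0.05 (SE 0.15, limma adjusted p = 0.869), with a 95% interval from -0.38 to 0.28.

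The 3 exopeptidases take amino acids or dipeptides from peptide ends, and 0 of them were called. Anpep encodes aminopeptidase N, which removes neutral residues from the amino end. The array reads it on chromosome 7 at 86966716 to 86966775 (mm9). Levels were 7.36, 6.86, 7.30 and 7.24 in the controls and 7.29, 7.30, 7.49 and 7.17 in the knockouts, with control 2 apart below the other 7 arrays. The difference was 0.12 (SE 0.12, limma adjusted p = 0.621), with a 95% interval from -0.16 to 0.40.

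Enpep encodes aminopeptidase A, which removes acidic residues and cuts angiotensin. Its probe lies on chromosome 3 at 128972910 to 128972969 (mm9). Levels were 3.61, 3.09, 3.67 and 3.57 in the controls and 3.34, 3.52, 3.68 and 3.52 in the knockouts. Control 2 was again the lowest array, and the groups overlapped. The difference was 0.03 (SE 0.14, limma adjusted p = 0.916), with a 95% interval from -0.28 to 0.35.

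Dpp4 encodes dipeptidyl peptidase, which removes dipeptides after proline or alanine and inactivates incretin hormones. The probe is on chromosome 2 at 62170062 to 62170121 (mm9). Levels were 2.99, 2.85, 2.78 and 2.88 in the controls and 2.74, 2.78, 3.00 and 2.83 in the knockouts, which overlapped. The difference was -0.04 (SE 0.09, limma adjusted p = 0.845), and its 95% interval from -0.23 to 0.16 was the narrowest among the 10 members.

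The meprins are metalloendopeptidases whose alpha and beta subunits, from Mep1a and Mep1b, join through disulfide bonds. Mep1a levels were 6.04, 5.49, 6.04 and 5.91 in the controls and 6.08, 6.32, 6.35 and 6.10 in the knockouts, from a probe on chromosome 17 at 43611284 to 43611343 (mm9). All 4 knockouts lay above all 4 controls, though knockout 1 was only just above controls 1 and 3. The difference was 0.34 (SE 0.14), with a 95% interval from 0.03 to 0.66. It did not pass the threshold (limma adjusted p = 0.201, exact permutation p = 0.0286).

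Mep1b levels were 5.81, 5.41, 5.77 and 5.65 in the controls and 5.34, 5.24, 5.62 and 5.20 in the knockouts. Knockout 3 lay among the controls, and the other 3 knockouts lay below all of them. The difference was -0.31 (SE 0.13), with a 95% interval from -0.59 to -0.02, and it too did not pass (limma adjusted p = 0.21, exact permutation p = 0.0571). Within an array, the Mep1a level minus the Mep1b level was 0.21 ± 0.09 (SD, n = 4) in the controls, between 0.08 and 0.27. In the knockouts it was 0.86 ± 0.16, between 0.72 and 1.08, so this contrast moved by 0.65 and its groups were apart. It was formed after both values had been seen and is given with no test.

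Counted by groups that do not overlap, 2 members had every knockout array below every control array, Lct and Treh, against 9.22% of all genes tested. Treh passed the filter through the controls only, where it is high, so its place in this count is no support for a fall. Mep1a was the 1 member with every knockout above every control, against 5.35%.

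**Figure D2:**
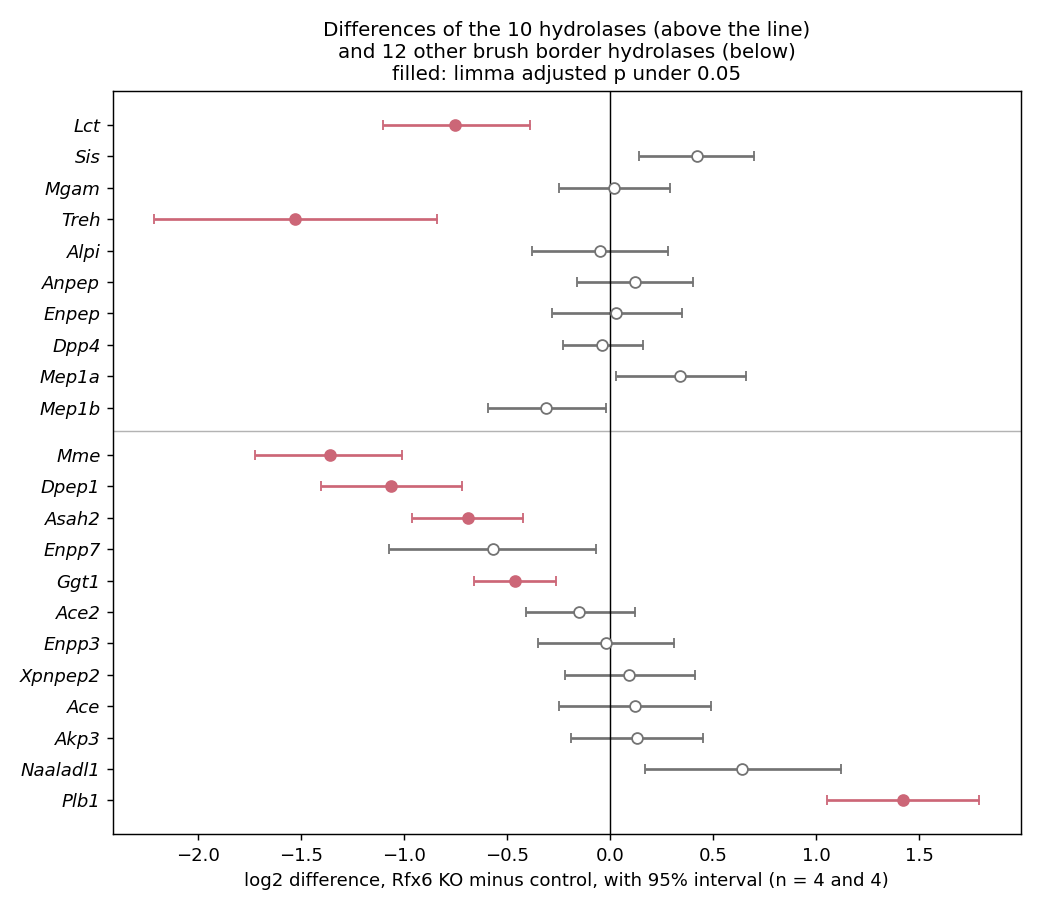
Difference of each gene, Rfx6 KO minus control in log2 units, with its 95% interval from limma (n = 4 and 4); filled red points have an adjusted p under 0.05. Above the line, Lct (-0.75) and Treh (-1.53) are called; below it, of 12 other brush border hydrolases, Mme, Dpep1, Asah2 and Ggt1 are called lower and Plb1 higher.

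The members shared a pattern between arrays of the same group. Control 2 was the lowest control array for 8 of the 10 members and above the group mean for 0 of them, with a median deviation of -0.36. Control 1 was the highest control for 7 members. Among the knockouts, array 3 was the highest for 9 members and above the group mean for all 10, with a median deviation of 0.18, and array 4 was the lowest for 6. The median over all genes moved little on these arrays, with deviations between -0.03 and 0.04 over the 8 arrays.

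**Figure D3:**
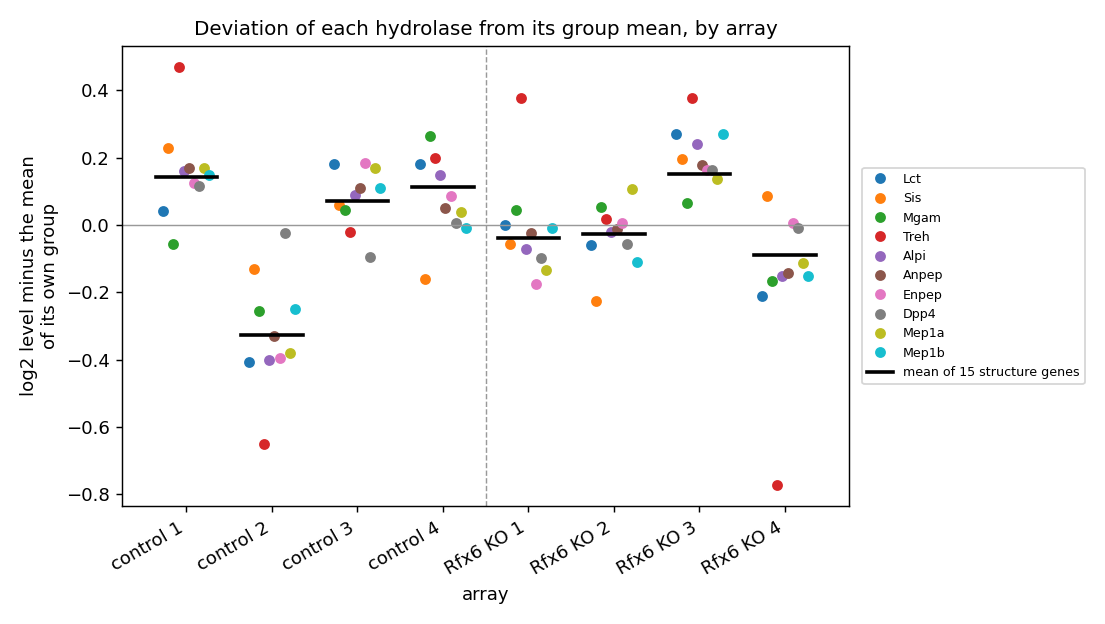
Deviation of each hydrolase from the mean of its own group on each array, in log2 units; coloured points are the 10 genes and black bars the mean of 15 brush border structure genes. On control 2 all 10 genes lie below 0, and on knockout 3 all 10 lie above 0; the bars move the same way.

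The same array pattern was present in genes that build the microvillus. The 15 brush border structure genes, among them Vil1 for the actin bundler villin and Cdhr2 for a cadherin that links microvilli, had mean levels of 4.08, 3.61, 4.01 and 4.05 in the controls. In the knockouts the means were 3.75, 3.76, 3.94 and 3.70. Control 2 was the lowest array of all, and the other 3 controls lay above every knockout. The low level of control 2 was not particular to the brush border. It was also the lowest control for the mean of the epithelial markers (5.23, the others 5.63 to 5.68). The same held for goblet cells (4.53 against 4.99 to 5.31), mesenchyme (3.94 against 4.14 to 4.72) and smooth muscle (4.41 against 4.56 to 4.91). Control 2 was also the lowest control for stomach, exocrine pancreas, proximal and distal intestine, endothelium and leukocytes. For leukocytes it was so only just (1.57 against 1.58 to 1.63). It was not the lowest for pericytes, mesothelium or liver. Against 2.59% lower and 2.33% higher over all genes tested, 1 of the 15 structure genes was called lower and 0 higher. It was Anks4b, a scaffold of the links between microvilli, with a difference of -0.45 (SE 0.10, limma adjusted p = 0.0411), and its call held only without control 2 when 1 array at a time was left out (limma adjusted p otherwise 0.0536 to 0.137). The list had 13 negative differences and a median of -0.15, against 60.5% negative and a median of -0.05 over all genes tested.

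Each hydrolase was therefore also set against the mean of the 15 structure genes on the same array, a scaling chosen after the data were seen. The spread between arrays became smaller for 8 of the 10 members in the controls and for all 10 in the knockouts. The difference was -0.59 for Lct and -1.38 for Treh, and both stayed below every control (exact permutation p = 0.0286 each). Treh was here too only through the controls, where it is high. Sis, at 0.57, Mep1a, at 0.49, and Anpep, at 0.27, now had every knockout above every control (exact permutation p = 0.0286 each). On this scale 2.09% of all genes tested had every knockout below every control and 8.65% had every knockout above. For Anpep the values were 3.28, 3.26, 3.29 and 3.20 in the controls and 3.54, 3.54, 3.55 and 3.47 in the knockouts, which were close together within each group. The other 5 members overlapped, with differences of 0.17 for Mgam, 0.10 for Alpi, 0.18 for Enpep, 0.12 for Dpp4 and -0.16 for Mep1b. In limma over all genes this scaling called Lct (adjusted p = 0.0196), Treh (0.0134) and Mep1a (0.0378), while Sis had 0.0627 and Anpep 0.216. The calls over all genes were 0.558% lower and 2.59% higher. It also moved the median of all genes from -0.05 to 0.10 and the calls over all genes from 602 lower and 543 higher to 130 lower and 604 higher. Positive differences on this scale are to be read against that shift.

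**Figure D4:**
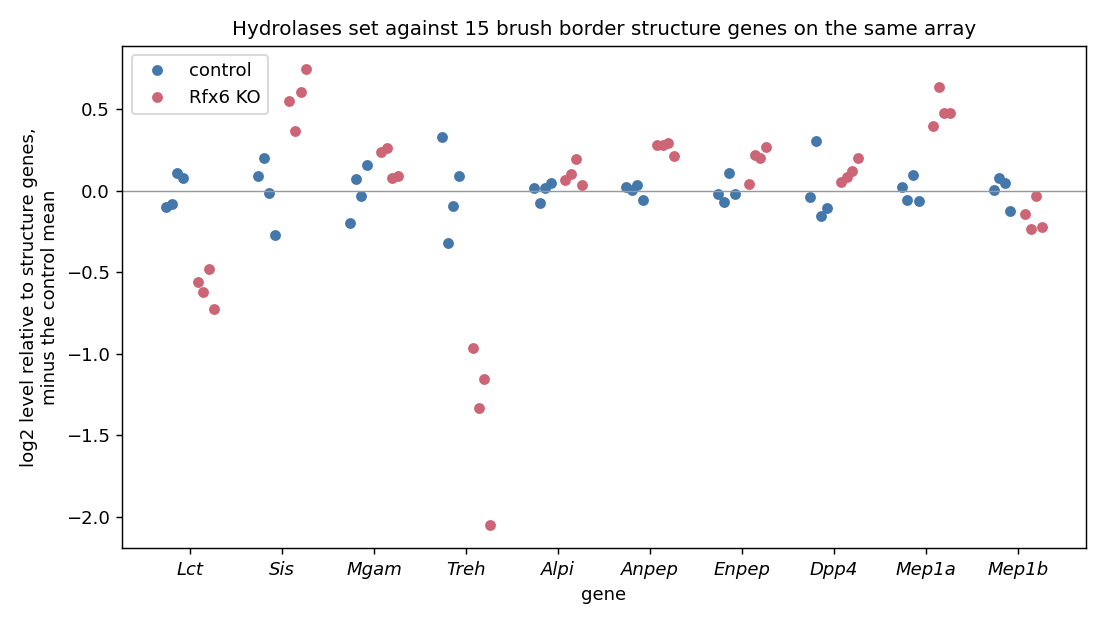
Level of each hydrolase minus the mean of 15 brush border structure genes on the same array, in log2 units, centred on the control mean of each gene; points are single arrays (blue, control; red, Rfx6 KO; n = 4 each). Lct and Treh lie below all controls, Sis, Anpep and Mep1a above them, and the other 5 genes overlap.

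Of 14 other hydrolases of the brush border, 12 could be tested, 4 fell and 1 rose, and their median difference was -0.08. Over all genes tested, 2.59% were called lower and 2.33% higher, with a median difference of -0.05. Tmprss15 and Folh1 were not well above background on all arrays of either group. Mme, for the endopeptidase neprilysin, fell by 1.36 (SE 0.16, limma adjusted p = 0.00201), from 1.91 ± 0.07 to 0.55 ± 0.34 (SD, n = 4). Dpep1, for a membrane dipeptidase that also acts on glutathione products, fell by 1.06 (SE 0.15, limma adjusted p = 0.00522), from 2.14 ± 0.30 to 1.07 ± 0.13 (SD, n = 4). Asah2, for the neutral ceramidase, fell by 0.69 (SE 0.12, limma adjusted p = 0.0135).

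Ggt1, for gamma-glutamyltransferase, fell by 0.46 (SE 0.09, limma adjusted p = 0.0205). Plb1, for phospholipase B, rose by 1.42 (SE 0.16, limma adjusted p = 0.00201), from -3.24 ± 0.15 to -1.82 ± 0.34 (SD, n = 4). Plb1 is dim as well, and only 1 of its 3 probes passed the filter. Its difference was 0.86 with normexp background correction and 0.96 in the authors' series matrix values. Mme, Dpep1 and Plb1 were called in all 20 alternative analyses, Asah2 in 18 and Ggt1 in 13. When arrays were scaled to the structure genes, Mme, Dpep1 and Plb1 stayed called. Asah2 (limma adjusted p = 0.0789) and Ggt1 (0.338) did not. The Ggt1 call was lost without control 1 or 4 or knockout 1 or 2 (limma adjusted p = 0.0514 to 0.0765). The other 7 tested genes lay between -0.57 for Enpp7, which acts on sphingomyelin, and 0.64 for Naaladl1, a peptidase; neither passed, with limma adjusted p of 0.186 and 0.126.

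Transporters take up what the hydrolases release. Of 8 such genes, 1 fell and 1 rose, against 2.59% and 2.33% of all genes tested. Their median difference was -0.27, against -0.05. Slc2a2, for a transporter that passes glucose, galactose and fructose to the blood side, fell by 0.68 (SE 0.12, limma adjusted p = 0.0147). Slc1a1, for a transporter of glutamate and aspartate, rose by 1.05 (SE 0.20, limma adjusted p = 0.0231), from a dim level of -2.85 ± 0.40 to -1.80 ± 0.26 (SD, n = 4). The Slc2a2 call was lost without control 1 (limma adjusted p = 0.055) or knockout 2 (0.0568). The Slc1a1 call was lost without control 1 or knockout 1, 2 or 3 (0.0513 to 0.0867), and its difference was 0.65 with normexp background correction. With the slide row as a block, Slc2a2 (limma adjusted p = 0.0572) and Slc1a1 (0.0714) were not called, and Slc2a2 was not with median centring either (0.057).

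Of 14 transcription factor genes of the intestinal epithelium, Hnf4g and Gata4 fell and 0 rose, with 12 negative differences and a median of -0.21. Over all genes tested, 2.59% were called lower, 60.5% of differences were negative and the median was -0.05. Hnf4g, a nuclear receptor of enterocytes, fell by 0.75 (SE 0.15, limma adjusted p = 0.0227). Gata4, which is known to set the proximal character of the intestine, fell by 0.51 (SE 0.12, limma adjusted p = 0.0396). The Hnf4g call was lost without control 1 or knockout 1, 2 or 3 (limma adjusted p = 0.0571 to 0.0821). Gata4 was called only without control 2 when 1 array at a time was left out (limma adjusted p otherwise 0.0632 to 0.116). Nor was Gata4 called with the slide row as a block (limma adjusted p = 0.0921), with median centring (0.119) or with no filter (0.12), where Hnf4g too was lost (0.0791). When arrays were scaled to the structure genes, neither Hnf4g (limma adjusted p = 0.23) nor Gata4 (0.222) was called. Cdx1, Cdx2, Hnf4a and the other 9 factors did not pass.

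The lists of stomach markers and of gut region markers were apart between the groups. So, only just, was that of goblet cells, given below. The lists of liver and exocrine pancreas overlapped. For the counts that follow, 2.59% of all genes tested were called lower and 2.33% higher. Of 8 stomach genes 6 rose. The mean level of the list was between -4.57 and -3.01 in the controls and between 1.72 and 2.34 in the knockouts. Among them Gkn2 and Atp4a, of mucous and acid-secreting cells, did not reach the well-above-background mark on the 4 controls, Atp4b reached it on 1, and Gkn1 and Tff1 on 2. The control levels of these 5 genes, and so of the list, therefore rest partly on background, and each passed the filter through the knockouts, where it is high. Of 5 markers of proximal intestine, Gata4, with the limits given above, and Cybrd1 fell, with mean levels of the list between 1.80 and 1.96 in the controls and between 1.02 and 1.56 in the knockouts. Of 5 markers of distal intestine, Fabp6 and Fgf15 rose. Fgf15 was well above background on 2 of the controls, so it too passed the filter through the knockouts, where it is high. The list was between 0.03 and 1.80 in the controls and between 3.33 and 3.83 in the knockouts. Its control level also rests partly on background. Of 5 liver genes Ttr and Fgb rose, but the list overlapped, between 1.38 and 3.38 in the controls and between 2.62 and 3.66 in the knockouts. Alb and Ahsg, with control SDs of 2.26 and 2.14, were not called (limma adjusted p = 0.416 and 0.381), nor was Serpina1a (0.726). The part of these tissues and regions in the differences of Lct, Treh and the other hydrolases was not tested.

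Epithelial markers such as Epcam and Cdh1, 6 in all, were present with mean levels between 5.23 and 5.68 in the controls and between 5.66 and 5.81 in the knockouts, and 0 of them were called. The goblet cell list had 1 of 6 genes called, Spdef, which rose by 0.50, against 2.33% of all genes tested called higher. Its mean level ran between 4.53 and 5.31 in the controls and between 5.32 and 5.51 in the knockouts. The groups were thus apart, but only just. Of 5 exocrine pancreas genes tested, all 5 had negative differences and 0 were called, with means between 0.02 and 1.63 in the controls and between -0.85 and 0.98 in the knockouts. Lists for mesenchyme, smooth muscle, endothelium, pericytes, mesothelium and leukocytes had 0 genes called.

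The targeted gene itself did not check the labels. The Rfx6 probe was well above background on all 8 arrays, at -3.14 ± 0.40 in the controls and -2.76 ± 0.56 in the knockouts (SD, n = 4), a difference of 0.38 (SE 0.29, limma adjusted p = 0.503). Whether this probe lies in the deleted part of the gene is not given in the sources used here.

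Position on the slide was not balanced between the groups. Row 1 of the slide held control 1 and knockouts 2, 3 and 4, and row 2 held the other 4 arrays. Within row 1 and row 2, the difference of Lct was -0.79 and -0.73, and that of Treh was -2.12 and -0.99. For Sis it was 0.20 and 0.44, for Mep1a 0.22 and 0.27, and for Mep1b -0.46 and -0.27. The other 5 members lay between -0.19 and 0.16 in both rows. Each of these within-row values compares 1 array with 3. With the row as a block in limma the differences were -0.76 for Lct and -1.56 for Treh, and neither was called (adjusted p = 0.0781 and 0.0684).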

How the data were processed

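Per the file headers, the arrays were read with Feature Extraction 10.10.1.1 on a grid built on mm9. The deposited scanner files give each spot's processed signal, a background-subtracted intensity on a linear scale; the authors' series matrix holds an intensity too, quantile-normalized without background subtraction as judged against the spot medians (Spearman 1.00, sorted values within 0.5 units, column medians 129.625). Its scale and centring are not stated.

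Of 62976 spots per array, 3671 control spots and 153 to 355 outlier spots were left out, and 0 gene spots were saturated. The 75th percentile was 636 to 741 units and 57.4% to 67.1% of probes were well above background; the number of arrays limits the precision. Spots of a probe were averaged. A probe was kept if every array of 1 or both groups had it well above background (31668 were), and the brightest represented its gene. Groups, from the source labels, were compared with limma 3.58.1 in R 4.3.3 (lmFit, eBayes, two-sided, no covariates). The script was tested on simulated data for this comparison: of 200 changed genes among 23172, it recovered 88% of those changed 2-fold and 95% of those changed 4-fold, with 3.68% false calls. The simulated noise was independent for each gene and array, with no shift shared by genes on an array and no slide row. No change under 2-fold was simulated. These rates check the script and need not hold for the real arrays.

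The members and gene lists were chosen with earlier results of these data known, so counts are descriptions. Named genes are the members, list genes past the threshold and Rfx6. Other genes named as examples were chosen after values were seen. Alternatives covered background, scaling, filters, probe choice, blocks, weights and leaving out each array. Replicate numbers were not treated as pairs in the main fit. Deviations of same-numbered arrays correlated at -0.07, -0.17, 0.07 and -0.41. These values gave no sign of pairing but cannot exclude it, since litter is not given. Promoter sequences are from RefSeq (GRCm38.p6). Some results are not reported here.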

Additional observations from a re-analysis of the deposited data

Results flagged for a closer look

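Values of 50 groups of 4 arrays were examined, and in 10 the highest or lowest array stood apart from the other 3 by Dixon's criterion. Chance gives about 1 in 20 groups, or 2.5, if groups are independent. These are not, because they share the same arrays and the list means hold some of the same genes. The 10 can therefore not be read as an excess over 2.5. Control array 2 was the one apart in 6 of them, always low. It had 3.09 for Enpep (the other controls 3.57 to 3.67), 5.04 for Alpi (5.53 to 5.60), 2.59 for Slc2a2 (2.86 to 2.90) and -3.44 for Slc1a1 (-2.72 to -2.59). Its mean was 3.61 for the brush border structure genes (4.01 to 4.08) and 1.30 for the other brush border hydrolases (1.62 to 1.68). Knockout array 4 was low for Mgam, at 1.72 against 1.93 to 1.95, and for Slc1a1, at -2.19 against -1.70 to -1.63. Knockout array 2 was low for Gata4, at 0.96 against 1.33 to 1.37. Control array 1 was high for Asah2, at 2.69 against 2.42 to 2.46. Without control array 2 the difference was -0.88 for Lct (limma adjusted p = 0.00868) and -1.74 for Treh (0.018).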

How the results depend on the processing

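Lct and Treh stayed lower in all alternatives listed at the outset that gave a value, 20 for Lct and 19 for Treh, which was not tested when probes had to be well above background on all 8 arrays. The limma call was less steady: Lct was called in 8, with differences from -0.88 to -0.59 and adjusted p from 0.00542 to 0.187, and Treh in 11, from -1.74 to -0.75 and from 0.00602 to 0.0829. Of the 10 members, the count called lower, 2 in the text, was 0 with quantile normalization, no filter, the slide row as a block or the replicate block, and 1 with median centring, with the filter on all 8 arrays or with the series matrix. Leaving out 1 array gave 0 to 2. With the replicate block, adjusted p was 0.0731 for Lct and 0.0618 for Treh. Members higher stayed at 0 in those alternatives and came to 1 when scaled to the structure genes, an alternative chosen after seeing the data.

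Signs turned for 4 members near 0, none of them called. Alpi was 0.07 with quantile normalization, 0.01 with median centring, 0.05 in the series matrix, 0.00 without control 1 (-0.18 to 0.00 over the arrays left out) and 0.10 against the structure genes. Dpp4 was 0.04, 0.03, 0.03, 0.00 (-0.09 to 0.00) and 0.12 in the same order. Mgam was -0.03 with the mean of its probes and with array weights, -0.07 without control 2 and -0.00 without knockout 2 or 3 (-0.07 to 0.11). Enpep was -0.07 with the slide row, -0.06 with weights, -0.10 without control 2 and -0.02 without knockout 3 (-0.10 to 0.09). Over all genes, 602 lower and 543 higher became 253 and 545 with median centring, 202 and 298 with no filter, 148 and 268 with the replicate block, and 1131 and 781 with weights; without any 1 array they were 217 to 589 and 335 to 509. Where calls changed, the cause was not tested.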
